A study of Mus musculus with 4 samples.

Results

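The quantity described here is the extent to which the expression difference between Snai1 knockout and control cells depended on the Flk1 fraction in which it was measured. For each gene the knockout minus control difference in Flk1- cells was subtracted from that in Flk1+ cells, on the log2 scale, and the result is called the difference of differences. A positive value means that the knockout stood higher against its control in Flk1+ cells than it did in Flk1- cells, and a negative value means the opposite. Equally, it is the Flk1+ minus Flk1- sort difference of knockout cells less that of control cells. Of 17097 genes named on the arrays, 10955 were above a floor on at least 1 array and form the set described, and 9555 of them were above it on all 4 arrays. The floor was 3.19 on the log2 scale, the 40th percentile of the values of all genes, and lower values were set to it before any difference was taken. A gene was counted where this quantity reached 1 in size (2-fold).

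The cells came from mouse embryonic stem cell lines labelled F/F, the control, and KO, the Snai1 knockout. They were grown into embryoid bodies, aggregates in which stem cells differentiate without direction into derivatives of the germ layers, and sorted with an antibody to Flk1 into a positive and a negative fraction. Both fractions of both lines were measured on 1 Affymetrix array each, which makes 4 groups. The first 3 groups were labelled day 4 in every field, while the Flk1- fraction of the knockout was called day 4 in its description and day 5 in its source name. Each array is thus the only one of its group, the contribution of a group and of its array cannot be told apart, and no test was possible. The labels do not say how many clones or cultures the lines stand for.

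Snai1 encodes a zinc finger repressor of the Snail family, known for repressing Cdh1 and other epithelial genes when cells leave the epithelial epiblast during gastrulation. Flk1, encoded by Kdr, is the VEGF receptor of lateral plate mesoderm, from which blood, endothelial and cardiac cells arise. Flk1- cells of an embryoid body include undifferentiated cells, cells of other germ layers and mesoderm derivatives that have lost the receptor.

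Values on the 4 arrays are given in the order control Flk1+, control Flk1-, knockout Flk1+, knockout Flk1-. Kdr was at 8.92, 4.55, 9.03 and 3.88, so both positive fractions were far above both negative ones. Its own difference of differences was 0.77, which came from the lower level in knockout Flk1- cells. Snai1 was at 2.56, 2.42, 1.88 and 1.94. All 4 values were below the floor, so its probe set gave no check of the genotype labels.

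Most genes had a similar genotype difference in both fractions. The median difference of differences was -0.07 (interquartile range -0.28 to 0.13), and 9892 genes, or 90.3%, were within 1.5-fold of 0. The 2-fold rule was met by 154 of 10955 genes (1.41%), 64 on the positive side (0.584%) and 90 on the negative side (0.822%). Among genes above the floor on all 4 arrays it was met by 123 (1.29%), 57 positive (0.597%) and 66 negative (0.691%). Mef2c at 1.01 was just inside the rule and Tspan33 at 1.0 just outside it on the positive side, and on the negative side Stk10 was just inside and Tle3 just outside, both at -1.0 after rounding. The split between the sides depended on scaling. It was 85 positive to 63 negative after a new quantile normalization, 90 to 61 after cyclic loess and 102 to 50 with each array centred on its median, which moved the median of all genes by 0.12 to 0.06.

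Taken by fraction, knockout cells were 2-fold or more higher for 81 genes (0.739%) and lower for 94 (0.858%) in Flk1+ cells, and higher for 39 (0.356%) and lower for 90 (0.822%) in Flk1- cells. The genotype differences behind the 154 genes were of several kinds. Of the 64 positive genes, 18 differed by 2-fold or more in Flk1- cells and by less than 1.5-fold in Flk1+ cells, 12 showed the reverse, and 19 were apart in the same direction in both fractions by unequal amounts. Among the 90 negative genes, 14 had the difference in Flk1- cells, 26 in Flk1+ cells and 3 in both. Opposite genotype differences of 1.5-fold or more in each fraction were seen for 1 positive gene and 5 negative genes, and for 0 genes when 2-fold was asked of each. The remaining 14 positive and 42 negative genes had smaller differences that added up to 2-fold.

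**Figure D1:**
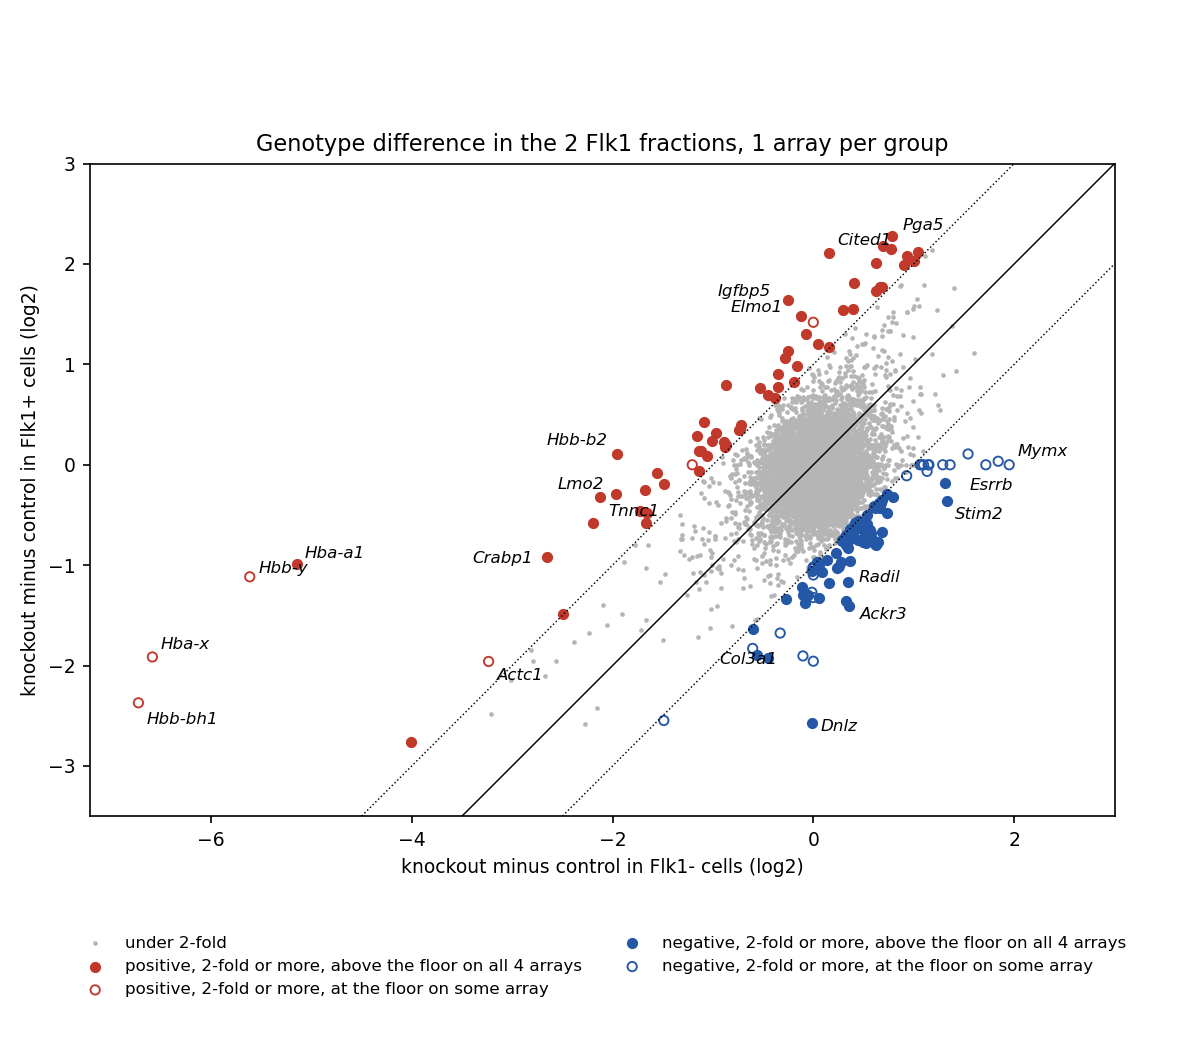
Knockout minus control in Flk1+ cells (vertical axis, log2) against the same difference in Flk1- cells (horizontal axis, log2), 1 point per gene, with values below the floor set to it. The solid line marks equal differences and the dotted lines a 2-fold difference of differences: 64 genes lie above them and 90 below, open symbols being genes at the floor on some array.

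A second view asks which array carried the difference. For many of the 154 genes a single array stood at least 2-fold above or below each of the other 3. It was the control Flk1+ array for 31 genes (16 high, 15 low), the knockout Flk1- array for 26 (14 high, 12 low), the control Flk1- array for 9 (all high) and the knockout Flk1+ array for 8 (6 high, 2 low). No single array stood apart for 80 genes, 22 positive and 58 negative. The gene groups behind these classes were not alike, and the results follow them. Genes listed as members of a class, apart from those with values under the rule for named genes, were named after their values were seen.

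**Figure D2:**
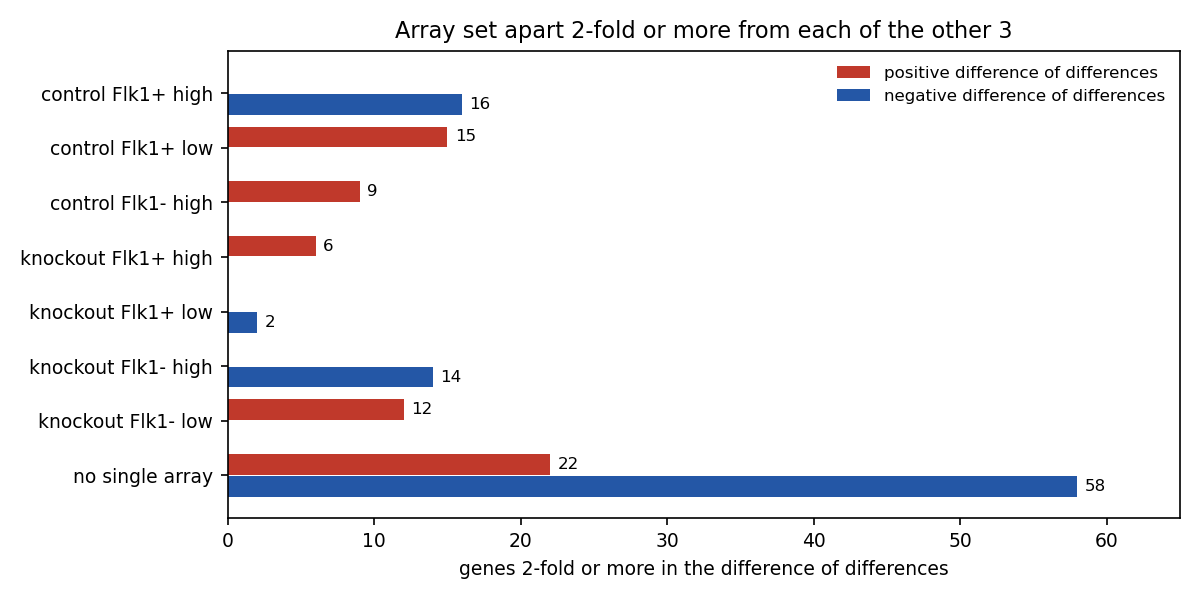
Number of genes with a 2-fold or larger difference of differences (horizontal axis) by the array that stood at least 2-fold apart from each of the other 3 (vertical axis), red for positive and blue for negative values. Control Flk1+ stood apart for 31 genes and knockout Flk1- for 26, and 58 of the 90 negative genes had no array apart.

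Blood genes gave the highest values of all, and for them control Flk1- cells were the array apart. Of 20 globin and primitive erythroid genes on the array, 17 were above the floor, 16 had a difference of differences above 0, and 7 were past 2-fold on the positive side and 0 on the negative. Of these 7, only Hba-a1, Hbb-b2 and Lmo2 were above the floor on all 4 arrays, which makes 3 of the 8 list members so measured, where 0.597% of all genes so measured were past 2-fold on the positive side. The median of the 17 was 0.74 (0.58 to 1.14 over the processing settings tried), against -0.07 for all genes. The alpha globin gene Hba-a1 was at 4.78, 9.02, 3.79 and 3.88. It was high on control Flk1- alone, and its knockout minus control difference was -0.99 in Flk1+ cells and -5.15 in Flk1- cells, which gave 4.16 (3.04 to 5.65 over its probe sets). The adult beta globin gene Hbb-b2 was at 4.59, 6.40, 4.70 and 4.45, with 2.06. Both genes have near-identical neighbours, so their probe sets may read more than 1 gene.

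For the embryonic globins the floor limited the size. Hba-x was at 5.11, 9.77, 1.97 and 2.01, Hbb-y at 4.31, 8.80, 1.73 and 1.63, and Hbb-bh1 at 5.56, 9.91, 2.63 and 2.98. All 3 were below the floor on both knockout arrays, so their values of 4.67, 4.50 and 4.35 repeat the control sort difference with its sign turned and do not rank the fractions. The same holds for Klf1, the erythroid transcription factor, at 2.44, 4.40, 2.37 and 2.29 with 1.21. Lmo2, a cofactor of the blood and endothelial transcription factors, followed another pattern. Its levels were 7.36, 5.26, 7.07 and 3.30, so it was close in both Flk1+ groups and low on knockout Flk1- alone. The genotype difference was -0.29 in Flk1+ cells and -1.96 in Flk1- cells, with a difference of differences of 1.68.

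As for most genes, the genotype difference of the listed endothelial and hemangioblast genes depended little on the fraction, as far as the floor allowed. Lmo2 (1.68) and Cd93 (-1.96) are not in this list. The listed genes were higher in Flk1+ cells, with a median sort difference of 0.84 in control and 0.88 in knockout cells. Only 16 were above the floor on each Flk1- array, so several genotype differences there were limited by the floor. Of 15 above it on all 4 arrays, 5 were above 0 and 10 below, with a median of -0.10. Of all 26 above the floor, 0 were past 2-fold in either direction, where 1.41% of all genes were. There were 9 above 0 and 17 below, where 59.2% of all genes were below 0. The median difference of differences of the 26 was -0.13 (-0.15 to -0.04 over the settings). Furthest from 0 were Pecam1 at -0.80, Kdr at 0.77 and Tek, the angiopoietin receptor gene, at -0.75. Tek was at 5.38, 3.40, 4.52 and 3.29, higher in Flk1+ than in Flk1- cells of both genotypes.

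Several contractile genes of heart muscle were also lower in the knockout by more in Flk1- than in Flk1+ cells. Of 20 sarcomere and smooth muscle genes above the floor, 14 were above 0 and 6 below, with a median of 0.32 (0.20 to 0.42 over the settings). Past 2-fold were 4, all positive, where 0.584% of all genes were past it on that side. With centred arrays the list median was less than 0.2 from that of all genes. Tnnc1, the cardiac troponin C gene, was at 5.41, 6.49, 5.08 and 4.36. Its genotype difference was -0.32 in Flk1+ cells and -2.12 in Flk1- cells, which gave 1.80, and control Flk1- was the high array. Tnnt2, cardiac troponin T, was at 6.88, 7.39, 4.12 and 3.38, far lower in both knockout groups, and gave 1.25. Tnni1 gave 1.26. Actc1, cardiac actin, was at 5.15, 6.43, 2.29 and 2.52, below the floor on both knockout arrays, so its 1.28 too is the control sort difference with its sign turned.

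Transcription factors of the cardiac and lateral plate mesoderm had a median of 0.29 (0.14 to 0.37 over the settings) across 19 genes above the floor. Of these, 15 were above 0 and 4 below, with 4 past 2-fold, all positive. The share of all genes past 2-fold on that side was 0.584%. With probe sets averaged the list median was less than 0.2 from that of all genes. Meis2, a homeobox cofactor, was at 6.49, 6.30, 5.91 and 4.10, with 1.61 (0.77 to 1.75 over the settings). Knockout Flk1- stood low and the other 3 arrays were close. Foxc1, a forkhead factor of mesoderm, was at 6.84, 6.11, 7.61 and 5.58. It was highest in knockout Flk1+ and lowest in knockout Flk1- cells, with genotype differences of 0.77 and -0.53 and a value of 1.30. Prrx1, a homeobox gene of limb and lateral plate mesenchyme, was below the floor on knockout Flk1-, so its 1.07 is a lower limit for that probe set, while another of its 4 probe sets gave -0.16. Mef2c gave 1.01 and was lower in the knockout in both fractions, by 1.49 in Flk1+ and by 2.5 in Flk1- cells.

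Knockout Flk1- alone was low for a class of 12 positive genes, 6 of them in a list and 6 in none. Its members were Igfbp4, Fbn2, Meis2, Crabp1, Lmo2, Plagl1, Cdkn1c, Map1b, Bmp5, St3gal1, Ints6 and Rhobtb1, all above the floor on all 4 arrays. Other probe sets gave values down to -0.47 for Ints6 and 0.06 for Rhobtb1. Crabp1, a retinoic acid binding protein gene, was at 6.47, 6.32, 5.56 and 3.67, with genotype differences of -0.92 and -2.65 and a value of 1.74. The imprinted gene Plagl1, a zinc finger factor, was at 9.03, 8.80, 8.84 and 7.31, with 1.29 (0.59 with another probe set). Cdkn1c, an imprinted cell cycle inhibitor, was at 7.84, 7.62, 7.36 and 5.96, with 1.18. In each the control arrays differed little by sort, and knockout Flk1- cells alone were low. This array is the one with the disagreeing day label, and the part of culture day in these values was not tested.

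Imprinted genes as a list had a median of 0.42 (0.26 to 0.55 over the settings) across 15 above the floor, 9 above 0 and 6 below. Past 2-fold were 2, both positive, where 0.584% of all genes were past it on that side. Dlk1, a Notch-like ligand expressed from the paternal allele, was at 7.79, 6.94, 5.84 and 4.15, and Phlda2, a maternally expressed growth inhibitor, at 7.28, 6.19, 7.47 and 5.65. Their values were 0.83 and 0.73. Dlk1 was lower in both knockout groups, while the genotype differences of Phlda2 were 0.19 in Flk1+ and -0.54 in Flk1- cells.

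IGF axis genes had a median of 0.41 (0.23 to 0.60 over the settings) across 10 above the floor, 7 above 0 and 3 below. Past 2-fold were 3, all positive, where 0.584% of all genes were past it on that side. The 3 IGF genes did not share an array. Igfbp5, a secreted IGF binding protein, was at 5.31, 6.25, 6.94 and 6.01, higher in the knockout in Flk1+ cells by 1.64 and at -0.25 in Flk1- cells, which gave 1.89. Igfbp4, another binding protein, was at 10.04, 8.82, 9.79 and 7.15, low on knockout Flk1-, with 1.43, but its 6 probe sets ranged from -0.11 to 1.43. Irs4, an insulin receptor substrate, was at 3.91, 5.71, 6.06 and 6.49, low on control Flk1+, with 1.38 (0.57 with another probe set).

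Control Flk1+ alone was low for a class that held 5 primed epiblast, 3 pluripotency, 3 endoderm and 2 epithelial genes, lists that share members. In all 11 of its 15 genes were in a list and 4 in none, and the 15 were all positive and all above the floor on all 4 arrays: Nanog, Utf1, Dppa5a, Cldn6, Cldn7, Cer1, Pga5, Trh, Irs4, Fzd5, Slc7a3, Enpp3, Celsr2, Wwc1 and Ell2. Cldn6, a tight junction claudin, was at 7.56, 8.92, 9.10 and 9.21, and Cldn7 at 4.30, 5.72, 5.85 and 6.12. Only control Flk1+ was low in both, and knockout Flk1+ was close to the Flk1- groups. Their genotype differences were 1.54 and 1.55 in Flk1+ cells and 0.30 and 0.40 in Flk1- cells, with differences of differences of 1.24 and 1.15. Within this class other probe sets gave values down to -0.12 for Enpp3 and 0.12 for Wwc1.

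Cdh1, the E-cadherin gene and the best known Snail target, was at 6.05, 7.76, 7.84 and 8.63. It was higher in the knockout in both fractions, by 1.79 in Flk1+ and 0.87 in Flk1- cells, and its value of 0.92 fell short of 2-fold. Spint1, a protease inhibitor of epithelia, gave 0.95. Of 35 epithelial genes above the floor, 23 were above 0 and 12 below, with a median of 0.18. Cldn6 and Cldn7 were the 2 past 2-fold, where 0.584% of all genes were past it on the positive side. When the floor was raised to the genes' median value, the list median was 0.04, no longer apart from that of all genes, and with centred arrays it was 0.31. The list was not uniform: Itga6, the laminin receptor subunit, was at 5.26, 5.17, 5.11 and 5.91 and gave -0.88, highest on knockout Flk1-.

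Among primed epiblast genes 13 of 21 were above 0 and 8 below, with a median of 0.25 (0.17 to 0.39 over the settings). Past 2-fold were 5 on the positive side and 1 on the negative, where 0.584% and 0.822% of all genes were. Cer1, a secreted antagonist of Nodal and BMP, was at 5.32, 7.45, 7.50 and 8.15, with 1.48 (2.47 with another probe set). Fzd5, a Wnt receptor, was at 4.92, 6.78, 7.0 and 7.71, with 1.14. In both, knockout Flk1+ was level with control Flk1- and control Flk1+ stood low. Hesx1, a homeobox repressor of the anterior epiblast, was the negative member. Its levels were 2.17, 3.20, 3.23 and 5.05, high on knockout Flk1- alone. With control Flk1+ below the floor, its -1.81 can lie nearer to 0 in truth.

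Endoderm genes gave a median of 0.37 (0.25 to 0.51 over the settings) across 24 above the floor, with 18 above 0 and 6 below. Past 2-fold were 4, all positive, where 0.584% of all genes were past it on that side. Cer1 and Cldn6 belong to the endoderm list as well. Pga5, a pepsinogen gene, was at 3.68, 5.44, 5.96 and 6.22, with genotype differences of 2.28 and 0.78 and a value of 1.5. Apom, an apolipoprotein gene, was at 3.64, 4.16, 3.82 and 3.28, all near the floor, with 1.06 (0.07 with another probe set).

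Pluripotency genes split by the array that carried them. Of 26 above the floor, 9 were above 0 and 17 below, where 59.2% of all genes were below 0. The median was -0.26 (-0.38 to -0.17 over the settings). Past 2-fold were 3 each way, where 0.584% of all genes were on the positive side and 0.822% on the negative. Only 17 list members were above the floor on control Flk1+. Over the 16 above it on all 4 arrays, 7 were above 0 and 9 below, with a median of -0.17. Of those 16, 3 were past 2-fold on the positive side and 0 on the negative. Dppa5a, a stem cell RNA-binding protein gene, was at 4.67, 8.21, 6.68 and 8.84. It was higher in the knockout by 2.01 in Flk1+ and by 0.62 in Flk1- cells, and gave 1.39. Utf1 at 4.67, 7.43, 6.45 and 8.12 gave 1.08. Nanog, a core factor, at 3.38, 6.57, 5.41 and 7.57 gave 1.03, and both were named after their values were seen. In all 3 the control Flk1+ array was the low one.

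The 3 negative pluripotency genes were Esrrb, Nr0b1 and Fbxo15, which are expressed in naive stem cells. Esrrb was at 1.90, 4.04, 2.71 and 5.76, Nr0b1 at 2.98, 3.60, 3.13 and 4.89, and Fbxo15 at 2.67, 4.36, 2.71 and 5.51. Knockout Flk1- was the high array in each, and both Flk1+ arrays were below the floor. Their values of -1.72, -1.29 and -1.15 therefore repeat the genotype difference in Flk1- cells with its sign turned, and do not measure Flk1+ cells. Another probe set of Esrrb gave 0.36. In all, 9 of the 90 negative genes had both Flk1+ arrays below the floor. Of the 14 genes high on knockout Flk1- alone, 2 were above the floor on all 4 arrays, Stim2 and Tmem198b. Stim2, a calcium sensor gene, was at 4.10, 3.87, 3.74 and 5.20, with -1.69 (-0.95 under the setting that brought it nearest to 0). These levels are of the bulk fractions, in which fewer cells of a type and less RNA per cell cannot be told apart.

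**Figure D3:**
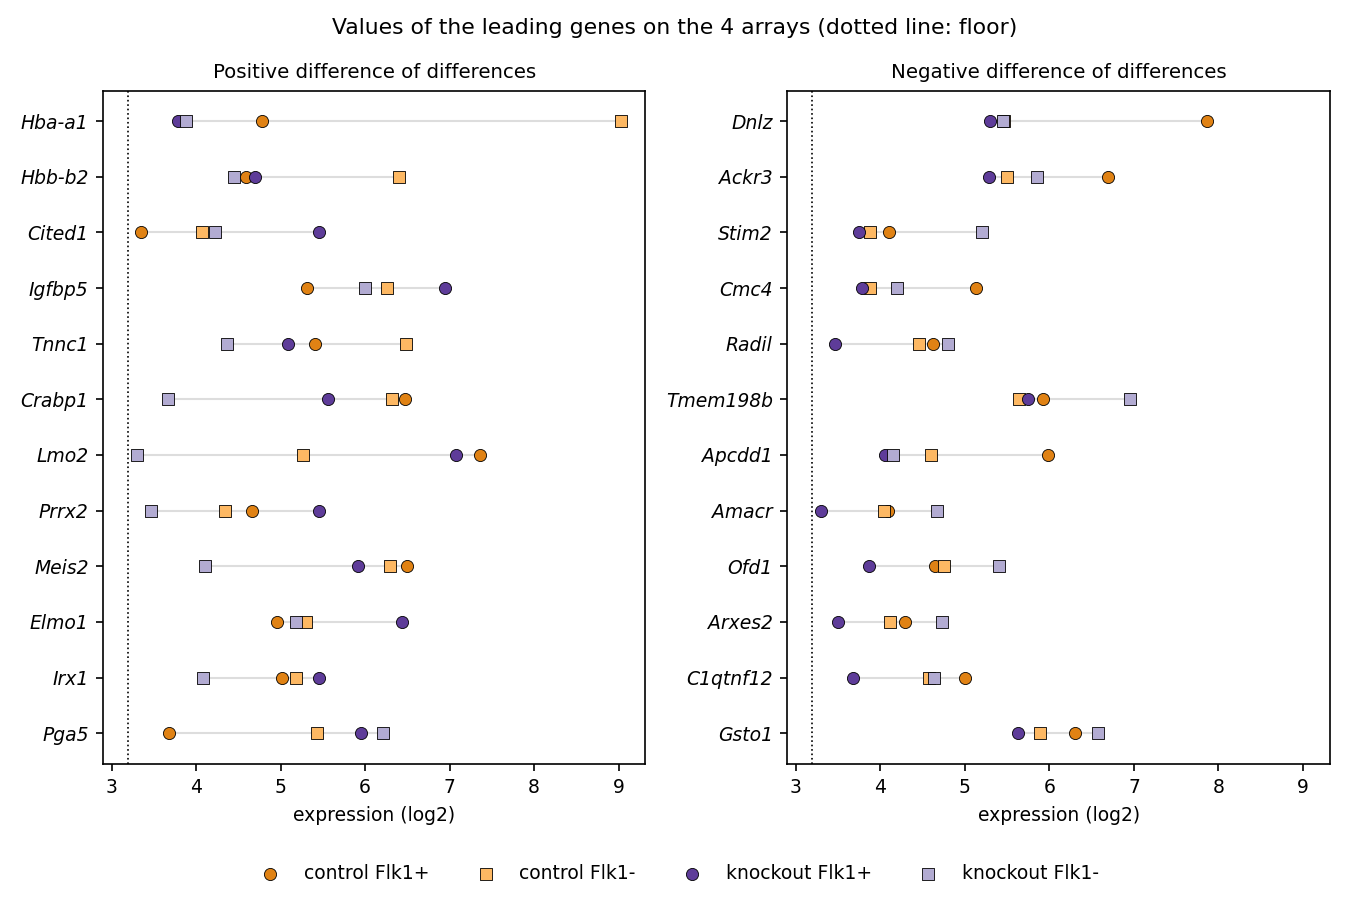
Log2 expression (horizontal axis) of 12 genes with the most positive and 12 with the most negative difference of differences among genes above the floor on all 4 arrays, 1 symbol per array, circles for Flk1+ and squares for Flk1- cells, orange for control and purple for knockout. Hba-a1 is far right on control Flk1- alone, Crabp1, Lmo2 and Meis2 are left on knockout Flk1-, and Dnlz is right on control Flk1+.

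The knockout Flk1+ array alone was high for 6 positive genes, Cited1, Elmo1, Pappa, Nab2, Prss23 and Pilra. Cited1, a transcriptional coactivator that binds CBP and p300, was at 3.35, 4.07, 5.46 and 4.23. Its genotype difference was 2.11 in Flk1+ cells and 0.15 in Flk1- cells, with a difference of differences of 1.95. Elmo1, which acts with DOCK proteins to activate Rac in cell migration, was at 4.96, 5.30, 6.44 and 5.18, with 1.60. Another of its probe sets gave -0.05, so the value rests on the probe set chosen. Pappa, a protease that cleaves Igfbp4, was at 3.19, 2.92, 4.61 and 2.92, below the floor on every array but knockout Flk1+. Its value of 1.42 is therefore undetermined in size, and its probe sets ranged from 0.40 to 1.52.

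Since the factor removed in the knockout binds DNA, the promoters of leading genes were searched for CAGGTG, the E-box bound by Snail proteins, on either strand (CACCTG on the other), a form of the general E-box CANNTG. Of the 24 leading genes, 17 had a window in the RefSeq table, which runs from 250 bases before to 50 bases after each start on assembly GRCm38.p6. Shown are 2 genes each way whose windows held a match, 5′ to 3′ on the gene's strand, with the matches in capitals. They are Elmo1 at chr13:20090257-20090556 on the plus strand, Cited1 at chrX:102250727-102251026 on the minus strand, Cmc4 at chrX:75416535-75416834 on the minus strand and Gsto1 at chr19:47854723-47855022 on the plus strand.
Elmo1: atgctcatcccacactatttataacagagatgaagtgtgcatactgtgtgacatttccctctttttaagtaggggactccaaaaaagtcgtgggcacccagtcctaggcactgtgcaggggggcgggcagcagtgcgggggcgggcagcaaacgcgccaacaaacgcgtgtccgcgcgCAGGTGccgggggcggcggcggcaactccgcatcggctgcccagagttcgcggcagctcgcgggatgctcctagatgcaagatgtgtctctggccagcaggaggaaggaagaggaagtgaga
Cited1: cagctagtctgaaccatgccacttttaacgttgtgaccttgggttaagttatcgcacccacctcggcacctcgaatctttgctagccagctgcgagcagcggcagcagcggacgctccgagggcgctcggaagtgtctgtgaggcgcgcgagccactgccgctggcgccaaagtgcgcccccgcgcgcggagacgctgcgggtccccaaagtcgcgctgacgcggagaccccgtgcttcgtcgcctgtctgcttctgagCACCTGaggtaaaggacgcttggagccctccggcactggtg
Cmc4: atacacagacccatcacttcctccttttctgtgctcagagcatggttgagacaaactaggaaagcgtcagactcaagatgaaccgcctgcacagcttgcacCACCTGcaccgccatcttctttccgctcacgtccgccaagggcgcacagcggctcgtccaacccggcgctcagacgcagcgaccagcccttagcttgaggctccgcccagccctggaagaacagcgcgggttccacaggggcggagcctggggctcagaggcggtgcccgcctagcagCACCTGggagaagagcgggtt
Gsto1: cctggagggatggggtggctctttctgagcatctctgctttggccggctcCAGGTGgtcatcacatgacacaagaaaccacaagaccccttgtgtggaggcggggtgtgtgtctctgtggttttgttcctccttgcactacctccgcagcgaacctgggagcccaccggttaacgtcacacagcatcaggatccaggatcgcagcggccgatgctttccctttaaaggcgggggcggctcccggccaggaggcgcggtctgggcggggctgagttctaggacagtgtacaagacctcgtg
The first 2 had positive and the other 2 negative values. Cited1 had 3 windows and the match lay in 1 of them. Elmo1 had another window, at chr13:20472740-20473039, without a match. Ofd1, a negative gene, also had a match and is not shown. The other leading genes with a window had none. The motif is common: 20.2% of all 32851 windows held it, as did 21.4% of the 8838 genes above the floor with a window. Among genes past 2-fold it was in 15 of 49 positive genes (30.6%) and in 10 of 71 negative genes (14.1%). A match of these letters is a description of the sequence and is no measure of binding.

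On the negative side the control Flk1+ array was high for 16 genes. They were Dnlz, Cd93, Col3a1, Apcdd1, Postn, Vstm2b, Amer3, Pcdh18, Zfp711, Ctla2a, Syde1, Zcchc12, Col1a1, Fgf3, Tigd5 and Klhl6, and 6 of them were above the floor on all 4 arrays. Collagen and matrix genes were among them. Col1a1, a fibrillar collagen gene, was at 6.53, 4.68, 3.99 and 3.17, Col3a1 at 5.10, 3.30, 3.04 and 2.85, and Postn, the periostin gene, at 4.87, 3.52, 3.16 and 3.19. All 3 were highest on control Flk1+ and lower on both knockout arrays. Their values were -1.06, -1.80 and -1.35. For Col1a1 the true value can lie nearer to 0, for Postn further from it, and for Col3a1 the floor leaves the size undetermined.

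These 3 genes are also in the list of fibroblast markers, which feeder cells of a stem cell culture would carry. Of 18 such markers, 5 were above the floor on at least 1 array, 5 on each control array and 3 on each knockout array. The other 2 of the 5, Pdgfrb at 0.48 and Serpinf1 at 0.28, were above the floor on all 4 arrays and had positive values. The mean level of all 18 markers, most of them at the floor, was 3.77, 3.43, 3.42 and 3.27, highest on control Flk1+. The part of feeder cells in the collagen values was not tested. The wider mesenchymal and matrix list went the other way from its collagens. It had a median of 0.26 (0.11 to 0.47 over the settings, and no longer apart from all genes with a lower floor or with probe sets averaged) across 24 genes above the floor, 15 above 0 and 9 below, with 1 past 2-fold on the positive side (Prrx1) and 3 on the negative. Of all genes, 0.584% were past 2-fold on the positive side and 0.822% on the negative. Over the 13 members of the mesenchymal and matrix list above the floor on all 4 arrays the median was 0.47. Past 2-fold were 0 of the 13, where 1.29% of all genes so measured were.

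Cd93, a surface receptor of endothelial and early blood cells, was at 5.94, 3.13, 3.98 and 2.54. It was highest on control Flk1+ and its value of -1.96 is undetermined in size, since both Flk1- arrays were below the floor, and another probe set gave -0.36. Apcdd1, a membrane inhibitor of Wnt signalling, was at 5.98, 4.60, 4.05 and 4.14, with genotype differences of -1.93 and -0.45 and a value of -1.47 (-0.32 with another probe set). Ackr3, a scavenging chemokine receptor, was at 6.70, 5.50, 5.29 and 5.85. Its genotype difference was -1.41 in Flk1+ and 0.36 in Flk1- cells, with -1.77, and its value stayed between -1.77 and -1.63 over the settings tried. Dnlz, a mitochondrial import protein gene, had the most negative value. It was at 7.87, 5.46, 5.30 and 5.45 with -2.56, but another probe set gave 0.41.

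Among streak and signalling genes, values past 2-fold fell on both sides. They numbered 4 of 18 in the Wnt list, 3 of 18 in the BMP list, 2 of 11 among Nodal and activin targets and 2 of 16 in the streak list, where 1.41% of all genes were past 2-fold. Eomes, a T-box factor of the primitive streak, was at 7.21, 6.05, 6.39 and 6.39. In control cells it was higher in Flk1+ by 1.17, in knockout cells the 2 fractions were level, and the value was -1.17. Mixl1, a streak homeobox gene, was at 5.31, 4.06, 4.55 and 4.14 and gave -0.84. Of 11 Nodal and activin targets, 3 were above 0 and 8 below, where 59.2% of all genes were below 0. Their median was -0.23 (-0.37 to -0.10 over the settings), with 1 past 2-fold each way (Cer1 and Eomes). The primitive streak list had a median of -0.21 (-0.21 to -0.01 over the settings) across 16 genes, with the same 2 genes past 2-fold.

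Of 18 BMP ligands and targets above the floor, 11 were above 0 and 7 below, with a median of 0.22 (0.10 to 0.32 over the settings). Past 2-fold were 2 on the positive side and 1 on the negative. With the floor raised to the genes' median value the list median was less than 0.2 from that of all genes. Id4, a target that blocks basic helix-loop-helix factors, was at 6.13, 6.58, 6.48 and 5.83, with 1.09, but another probe set gave -0.09. The ligand gene Bmp5 was at 7.81, 7.60, 7.23 and 5.93, low on knockout Flk1-, with 1.09 (down to 0.31 with other probe sets). Bmp2 was at 6.57, 5.20, 5.81 and 5.49, with -1.04. Wnt targets and modulators had a median of 0.02 (-0.07 to 0.13 over the settings) across 18 genes, 2 past 2-fold each way. Dkk1, a secreted Wnt inhibitor, was at 5.78, 6.07, 6.68 and 5.72, with 1.26 (0.67 with another probe set). Ccnd1, the cyclin D1 gene, was at 6.24, 5.57, 5.61 and 6.03, with -1.10, and its probe sets reached -0.07.

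**Figure D4:**
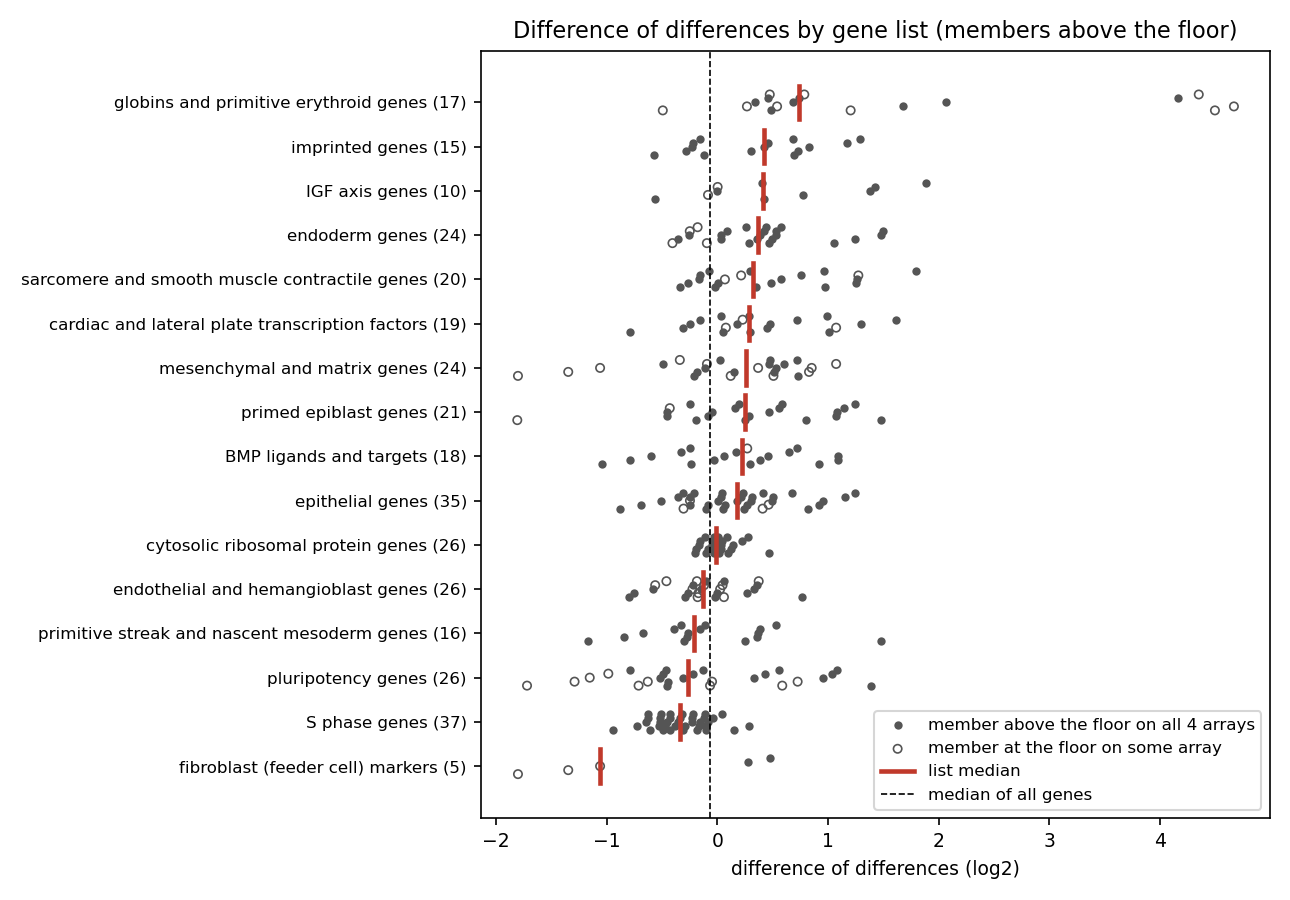
Difference of differences (horizontal axis, log2) of the members above the floor in 16 gene lists, 1 point per gene, open where the gene was at the floor on some array, with the list median in red and the median of all genes dashed. Globin genes reach 4.67, the imprinted and IGF lists have medians of 0.42 and 0.41, and 34 of the 37 S phase genes lie below 0.

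S phase genes lay mostly below 0, by small amounts. Of 37 S phase genes above the floor, 34 were below 0 and 3 above, where 59.2% of all genes were below 0 and 40.8% above. The median was -0.33 (-0.35 to -0.20 over the settings tried), and 0 genes were past 2-fold, where 1.41% of all genes were. With probe sets averaged the list median was less than 0.2 from that of all genes. The median genotype difference of the list was -0.18 in Flk1+ cells and 0.16 in Flk1- cells. Hells, a chromatin remodeller of replicating cells, was at 5.22, 5.63, 4.81 and 6.17, lowest in knockout Flk1+ and highest in knockout Flk1- cells, with -0.95 (up to -0.17 with other probe sets). Exo1, an exonuclease of DNA repair, gave -0.73 (-0.07 with another probe set) and Clspn, a replication checkpoint adaptor, -0.64. For G2 and M phase genes the median was -0.16 (-0.19 to -0.02 over the settings), and 19 of 27 were below 0, while cytosolic ribosomal protein genes were at -0.01 and reference genes at -0.01.

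The largest class on the negative side had no array apart. Of its 58 genes 4 were in any of the 39 lists (6.90%), where 5.60% of all 10955 genes were. The lists held 12 of all 90 negative and 35 of the 64 positive genes, but they were chosen with earlier results known. In the class of 58 the median genotype difference was -0.72 in Flk1+ cells and 0.42 in Flk1- cells. By sort the median was 0.25 in control and -0.88 in knockout cells, and 44 of the 58 were within 1.5-fold by sort in control cells. By these medians knockout Flk1+ cells were low and knockout Flk1- cells high against their controls, but not every member had this order. Radil, an effector of the GTPase Rap, was at 4.63, 4.45, 3.46 and 4.80 with -1.51. Ofd1, a centriole gene, was at 4.64, 4.75, 3.87 and 5.40 with -1.42. Amacr, a racemase of branched fatty acid breakdown, was at 4.09, 4.05, 3.29 and 4.67 with -1.42, and Gsto1, a glutathione transferase, at 6.30, 5.89, 5.63 and 6.57 with -1.35. Other members of the class were highest on control Flk1+, among them Ackr3, Eomes, Bmp2, Ccnd1 and Cmc4. Cmc4, a small mitochondrial protein gene, was at 5.14, 3.87, 3.78 and 4.20, and gave -1.68.

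Positive values without an array apart numbered 22, and their medians mirrored those of the 58 negative genes. The median genotype difference of the 22 was 0.41 in Flk1+ cells and -0.73 in Flk1- cells. By sort it was -0.33 in control and 0.86 in knockout cells, and 16 of the 22 were within 1.5-fold by sort in control cells. Prrx2, a homeobox gene of mesenchyme, was at 4.66, 4.34, 5.46 and 3.47. It was higher in the knockout by 0.80 in Flk1+ cells and lower by 0.87 in Flk1- cells, with 1.66. Irx1, an Iroquois homeobox gene, was at 5.02, 5.18, 5.45 and 4.09, with 1.52.

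The difference of differences varied with signal level, and it was sizeable for some control probe sets and small for others. Genes above the floor on all 4 arrays were ranked by mean level and split into 5 groups of 1911. The median was -0.01 in the lowest group, -0.12 in the fourth and -0.08 in the highest. Positive genes past 2-fold numbered 4, 12, 14, 13 and 14 from the lowest to the highest group, and negative genes 6, 26, 19, 14 and 1. The 5′ probe set of Gapdh was at 8.67, 8.93, 9.25 and 8.67, a difference of differences of 0.83, while its 3′ probe set was at 10.72, 10.69, 10.72 and 10.66, with 0.03. The 3′ minus 5′ signal thus had a difference of differences of -0.81 for Gapdh, -0.38 for Actb and 0.03 for the transferrin receptor. The 3′ probe set of 18S ribosomal RNA was at 10.83, 10.64, 11.04 and 10.04, with 0.80, while its middle probe set gave 0.03. The 3′ and middle probe sets of Actb gave 0.07 and 0.12. Those of the transferrin receptor gave 0.64 (3′), 0.61 (5′) and 0.47 (middle). The part of RNA quality and amplification in the values above was not tested.

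**Figure D5:**
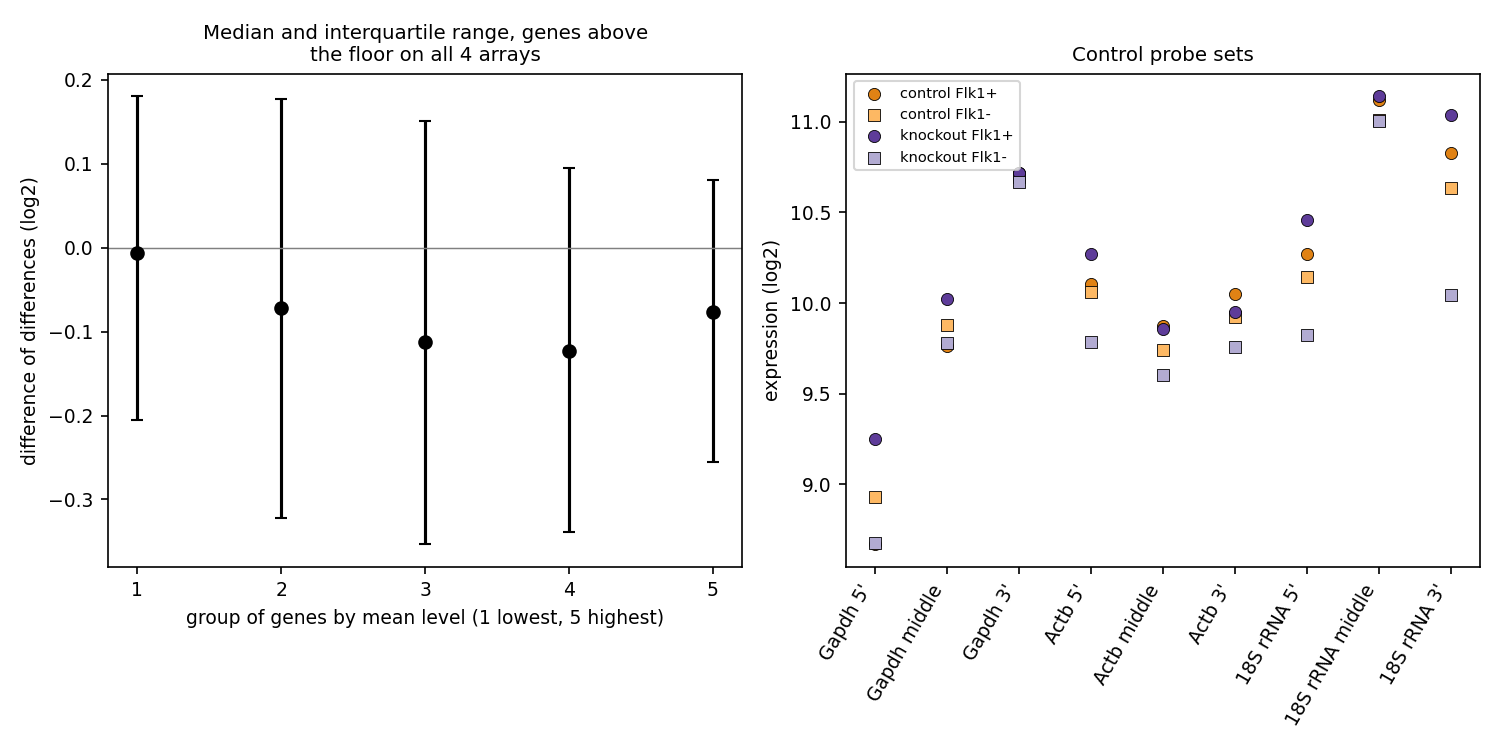
Left, median difference of differences with the interquartile range (vertical axis, log2) in 5 groups of 1911 genes by mean level; right, log2 expression of control probe sets on the 4 arrays. The median is -0.01 in the lowest group and -0.12 in the fourth, and knockout Flk1+ is highest and knockout Flk1- lowest for 18S rRNA 3′.

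Further probe sets of the same genes gave smaller values. Of the 57 positive genes above the floor on all 4 arrays, 16 had another probe set above the floor. In 12 of these 16 the others had the same sign, in 8 they reached 1.5-fold and in 3 they reached 2-fold, with a median of 0.58 against 1.27 for the chosen probe sets. Of the 66 negative genes, 22 had another probe set, with the same sign in 17, 1.5-fold in 7 and 2-fold in 2, and a median of -0.37 against -1.15.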

How the data were processed

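Total RNA of 4 sorted cell samples was amplified from 50 ng, and 3 ug of cDNA was labelled and hybridised to Affymetrix arrays, per the labels' protocols. The authors deposited log2 expression values, and the submitters' processing notes name RMA and limma, whose versions and roles are not given in the sources used here. Of 45141 probe sets, 104 control, 551 with several genes and 15588 with no gene were left out, and the 28898 with 1 gene covered 17097 genes (16936 matched RefSeq). A gene with several probe sets (7180 genes) was represented by the one with the highest 4-array mean. Values below the 40th percentile of all genes' values (3.19) were set to it, and genes above it on at least 1 array were kept. From these log2 values the difference of differences was computed in Python 3.11.15 with numpy 2.4.6 and pandas 2.3.3. With 1 array per group no test was run, and the number of arrays limits the precision. The computation was tested on simulated data.

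Where an array was at the floor, the value was described as a limit or as undetermined in size. Named genes were the 12 furthest from 0 each way among genes above the floor on all 4 arrays, the 6 each way among the others, up to 4 members of each list described, Snai1, Kdr, and up to 6 each way with opposite genotype differences of 1.5-fold or more. Gene models without a proper name, 1 positive and 2 negative, were not named. The members, the 39 gene lists and these rules were chosen with earlier results of these data known. Alternatives were other floors, size rules of 1.5-fold and 3-fold, quantile normalization, median centring, cyclic loess (R 4.3.3, limma 3.58.1, span 0.3, 3 rounds), the mean of probe sets and the omission of probe sets that can bind several transcripts. RefSeq tables (GRCm38.p6) were used for names and promoter sequences only.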

Additional observations from a re-analysis of the deposited data

Results flagged for a closer look

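The genotype difference was opposite in the 2 fractions, by 1.5-fold or more in each, for 6 genes. Prrx2 was higher in the knockout in Flk1+ cells and lower in Flk1- cells, with a difference of differences of 1.66. Amacr (-1.42), Ofd1 (-1.42), Arxes2 (-1.40), Gsto1 (-1.35) and Wdr73 (-1.32) were lower in the knockout in Flk1+ cells and higher in Flk1- cells. The difference was not tested, since each group had 1 array. Other probe sets gave -0.94 for Gsto1 and -0.26 for Wdr73.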

How the results depend on the processing

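At a size rule of 1.5-fold the counts were 356 positive and 707 negative genes, and at 3-fold 13 and 9. Median centring gave 102 and 50. Averaging the probe sets of each gene left 56 negative genes and 8 of the 13 lists whose median lay at least 0.2 from that of all genes. Without probe sets that can bind several transcripts, Dnlz turned from -2.56 to 0.38, as read by another of its 3 probe sets. Counts of either direction were within 1.5 times the reported ones under the other settings. Of the 37 named genes past 2-fold, 25 to 37 were past it under each alternative. The globin, primed epiblast, endoderm, IGF and imprinted lists stayed at least 0.2 from all genes under every alternative. No array could be left out, since each was the only one of its group, and genes near the floor have no measured size. No paired analysis was possible because each group had 1 sample.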

Other observations

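Small shifts of metabolic genes fell on both sides of 0. Over all genes the median difference of differences was -0.07, and 59.2% of genes were below 0. Of 36 mitochondrial respiration genes above the floor, 28 were below 0 and 8 above, with a median of -0.13. Past 2-fold were 0 of them, where 1.41% of all genes were. Cholesterol synthesis genes had a median of -0.24, with 13 of 18 below 0. Within that list Msmo1, a sterol oxidase gene, was at -0.74 and Hsd17b7, a sterol reductase gene, at 0.76. DNA methylation enzymes had a median of -0.18 over 8 genes. Germ cell genes had a median of -0.05 over 10 genes. Of 12 blood macrophage markers, 4 were above the floor.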
